A study of Mus musculus with 10 samples.

Results

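The tumour necrosis factor (TNF) superfamily of ligands and receptors was followed in bulk RNA of the mouse left atrium, 2 weeks after pressure overload. The members were all gene symbols that begin with Tnfsf or Tnfrsf, together with Tnf, Lta, Ltb, Ltbr, Fas, Fasl, Cd40, Cd40lg, Cd27, Cd70, Eda, Edar, Eda2r and Ngfr, which gave 47 of 48397 genes. They comprised 19 ligand genes, 27 receptor genes and Tnfsf13os, an antisense transcript that only shares the prefix. The 5 TAC libraries came from male wild-type C57BL/6J mice whose aortic arch was narrowed at 2 months of age (transverse aortic constriction, TAC). The 5 Sham libraries came from wild-type male mice of the same strain and age after sham surgery. Strain and sex are given by the series' design text, which describes the tissue as left appendage, whereas the sample labels say left atrium. As the sources do not say whether every library is its own animal, the tests speak only to the spread among these 10 libraries, part of which may be technical.

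TNF superfamily ligands are trimeric proteins, most of them made as proteins anchored in the membrane, and many are released by proteases. Their receptors carry cysteine-rich repeats outside the cell. Receptors with an intracellular death domain can assemble caspase-activating complexes through the adaptors TRADD and FADD, other receptors bind TRAF adaptors that lead to the transcription factor NF-kB, and decoy receptors bind ligand without passing the signal on. The family is known for inflammatory signalling and the control of cell survival in many tissues, the heart included, and single branches for lymphocyte costimulation and for bone resorption.

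Tnfrsf11b, Tnfrsf13b and Cd40 rose most among the tested members and Tnfrsf19 fell most. Expression is given as CPM, reads of a gene per 1e6 counted reads after TMM scaling for library composition, and a gene is said to rise or fall where edgeR's quasi-likelihood test gave a Benjamini-Hochberg adjusted p under 0.05 over all 15175 genes tested. Of the 47 members, 32 passed the filter on low counts. Among these 32, 14 rose after TAC and 2 fell, where 28.9% of all tested genes rose and 27.9% fell (56.8% called in either direction). Scaled by library size alone, 17 members rose and 1 fell, where 51.0% and 12.7% of all genes did so. The 13 receptor genes that rose, of 22 tested, ranged from Tnfrsf1a (1.54-fold) to Tnfrsf11b (30.2-fold), and the 2 that fell were Tnfrsf19 and Tnfrsf21. Of 9 tested ligand genes 1 rose, Ltb, and none fell by edgeR, although at an unadjusted p under 0.05 Tnf was also lower. The median log2 fold change was 1.0 over tested receptors, -0.16 over tested ligands and 0.01 over all tested genes. Whether receptors and ligands differed was not tested, and 5 of the 9 tested ligand genes had a mean log2 CPM under 0, where 36.5% of all tested genes were called. A gene can pass the filter through the group in which it is high, so these counts and medians describe the members that passed and no more.

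**Figure D1:**
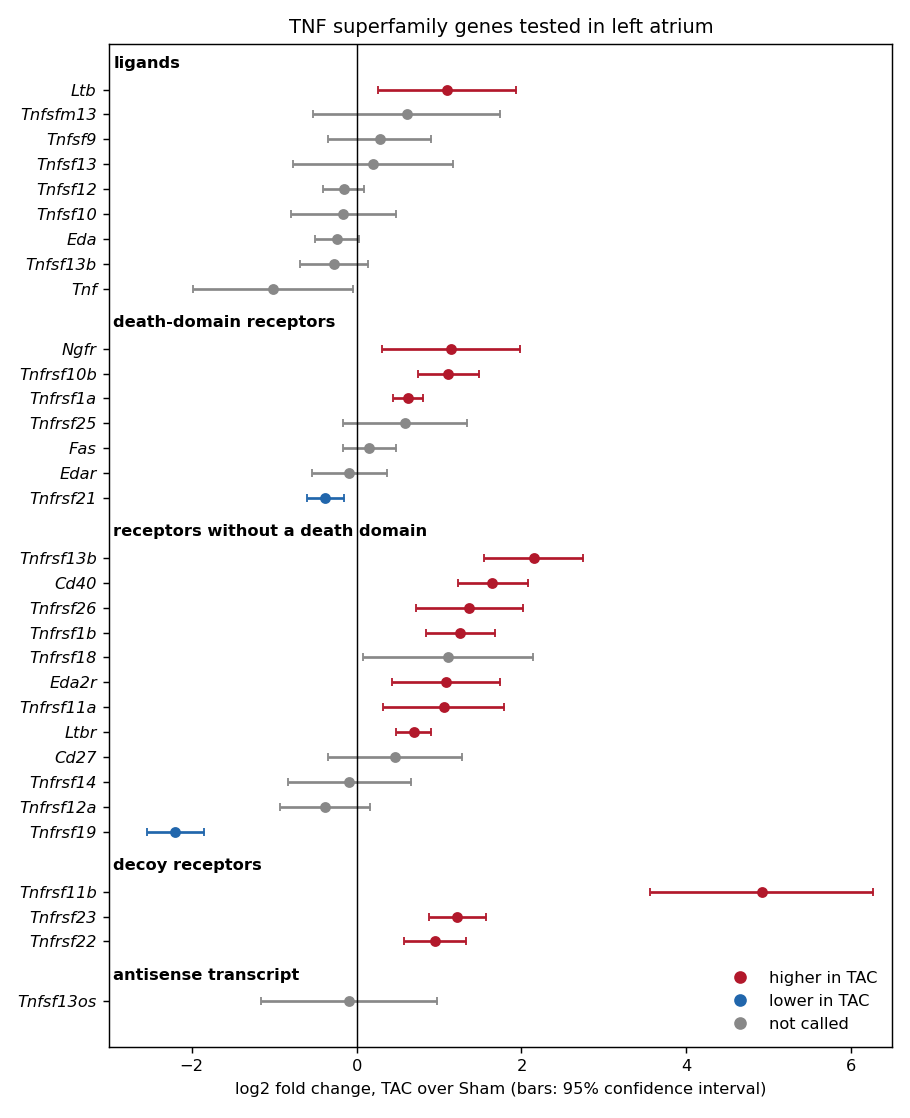
Log2 fold change (TAC over Sham) with its 95% confidence interval for the 32 tested members, grouped by role. Points in red rose, points in blue fell and points in grey were not called. Most receptor intervals lie above 0, with Tnfrsf11b farthest at 4.92 and Tnfrsf19 lowest at -2.20, and among ligands the interval of Ltb lies above 0 and that of Tnf, not called after adjustment, just below it.

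The libraries held 29493200 to 41358617 counts over genes in TAC and 17117306 to 43956384 in Sham, where replicates 1 and 2 were the shallowest. Atrial cardiomyocyte markers were abundant in every library, with a sum of 8 marker genes of 34760 to 45880 CPM in TAC and 71110 to 83260 CPM in Sham. Macrophage and monocyte markers summed to 248 to 491 CPM in TAC and 117 to 192 CPM in Sham. Cycling-cell markers summed to 122 to 430 CPM in TAC and 2.48 to 18.9 CPM in Sham. In bulk tissue, more cells of a type and more RNA per cell cannot be told apart.

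Ordered by level per kilobase of exon, the same 4 genes led in both groups. Tnfrsf12a, which encodes the TWEAK receptor Fn14, came first at 75.7 ± 13.8 CPM per kb in TAC and 98.6 ± 38.7 CPM per kb in Sham (SD, n = 5 each). Tnfrsf1a, the main receptor gene for soluble TNF, followed at 40.1 ± 4.15 CPM per kb in TAC and 26.02 ± 2.01 in Sham. Ltbr, the lymphotoxin beta receptor gene, stood at 24.6 ± 1.95 CPM per kb in TAC and 15.2 ± 2.10 in Sham. The libraries of these 3 genes and of the next in order did not overlap in either group. Tnfsf12, which encodes TWEAK, was the ligand gene with the highest level, at 8.55 ± 0.756 CPM per kb in TAC and 9.58 ± 1.55 in Sham. In TAC, Tnfsf12, Tnfrsf1b, Tnfsf10 and Fas each overlapped with the next gene in order. In Sham, Tnfsf12 did not overlap with the next gene, Tnfsf10, while Tnfsf10, Tnfrsf21 and Tnfrsf1b each overlapped with the gene after it. Using the longest transcript as the length kept the first 10 places in TAC.

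The ligand genes with most reads were not called. Tnfsf10, which encodes the death ligand TRAIL, had 20.8, 13.7, 23.6, 35.4 and 29.5 CPM in TAC replicates 1 to 5, against 30.8, 33.5, 26.8, 34.0 and 12.5 CPM in Sham replicates 1 to 5. TAC and Sham libraries overlapped over most of their range (log2 fold change -0.16, SE 0.29, adjusted p = 0.66, 95% interval -0.80 to 0.48). Tnfsf12 had 11.5, 13.6, 11.9, 13.9 and 13.9 CPM in TAC replicates 1 to 5, against 13.7, 18.7, 13.2, 13.0 and 14.0 CPM in Sham replicates 1 to 5. Its groups overlapped as well, with an interval of the log2 fold change from -0.41 to 0.09 (adjusted p = 0.26). As 48.3% of the exonic bases of Tnfsf12 are shared with the read-through transcript Tnfsfm13, reads from them may have been counted as ambiguous.

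Eda, the ectodysplasin gene, averaged 8.18 ± 1.35 CPM in TAC and 9.64 ± 0.585 CPM in Sham (SD, n = 5 each), with an adjusted p of 0.12 and an interval of -0.50 to 0.03. With limma voom in place of edgeR, Eda was called lower (log2 fold change -0.32, adjusted p = 0.028). Tnfsf13b, which encodes the B cell survival factor BAFF, averaged 3.43 ± 0.866 CPM in TAC and 4.14 ± 0.497 CPM in Sham (SD, n = 5 each, interval -0.69 to 0.14, adjusted p = 0.24). Intervals this wide do not show that the ligand genes were alike in the 2 groups. With scaling by library size alone, the log2 fold changes of Tnfsf10 (0.19), Tnfsf12 (0.20), Eda (0.12) and Tnfsf13b (0.08) turned positive without passing the test.

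Tnf itself, the inflammatory cytokine gene that names the family, was scarce. It had 0.185, 0.324, 0.355, 0.147 and 0.422 CPM in TAC replicates 1 to 5, against 0.310, 0.639, 0.760, 0.928 and 0.188 CPM in Sham replicates 1 to 5. TAC values reached at most 0.422 CPM and overlapped with the lower Sham libraries, with log2 fold change -1.01, SE 0.44, adjusted p = 0.07. Without Sham replicate 5, the Sham library with the lowest Tnf level, Tnf passed the test (log2 fold change -1.25, adjusted p = 0.021). Ltb, which encodes the membrane-bound lymphotoxin beta, had 0.509, 0.698, 1.599, 0.998 and 1.003 CPM in TAC replicates 1 to 5, against 0.807, 0.320, 0.456, 0.464 and 0.225 CPM in Sham replicates 1 to 5. The highest Sham library, replicate 1, exceeded the lowest TAC libraries, and the increase was 2.14-fold (log2 fold change 1.09, SE 0.39, adjusted p = 0.029). The call for Ltb was lost without TAC replicate 3 (adjusted p = 0.080) or without Sham replicate 2 (0.063), 3 (0.054), 4 (0.053) or 5 (0.070), and with the replicate number as a block (0.057).

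The remaining tested ligand genes, Tnfsf9 (4-1BB ligand), Tnfsf13 (APRIL) and Tnfsfm13, all averaged under 1 CPM and were not called, with adjusted p from 0.34 to 0.72. Tnfsf9 averaged 0.688 ± 0.179 CPM in TAC and 0.578 ± 0.187 CPM in Sham (SD, n = 5 each), Tnfsf13 0.518 ± 0.239 CPM in TAC and 0.483 ± 0.280 CPM in Sham (SD, n = 5 each) and Tnfsfm13 0.308 ± 0.113 CPM in TAC and 0.177 ± 0.149 CPM in Sham (SD, n = 5 each). The antisense Tnfsf13os was not called either (log2 fold change -0.09, SE 0.49, adjusted p = 0.88). Tnfsf13 shares 60.0% of its exonic bases with Tnfsfm13 and the antisense Tnfsf13os, and the strand setting of the counting is not given in the sources used here. Tnfsfm13 shares 78.1% of its exonic bases with Tnfsf12, Tnfsf13 and Tnfsf13os, so reads from it may also have been counted as ambiguous. The median SE of the 5 tested ligand genes with a mean log2 CPM under 0 was 0.44 on the log2 scale, against 0.12 for the 3 ligand genes at a mean log2 CPM of 2 or more.

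**Figure D2:**
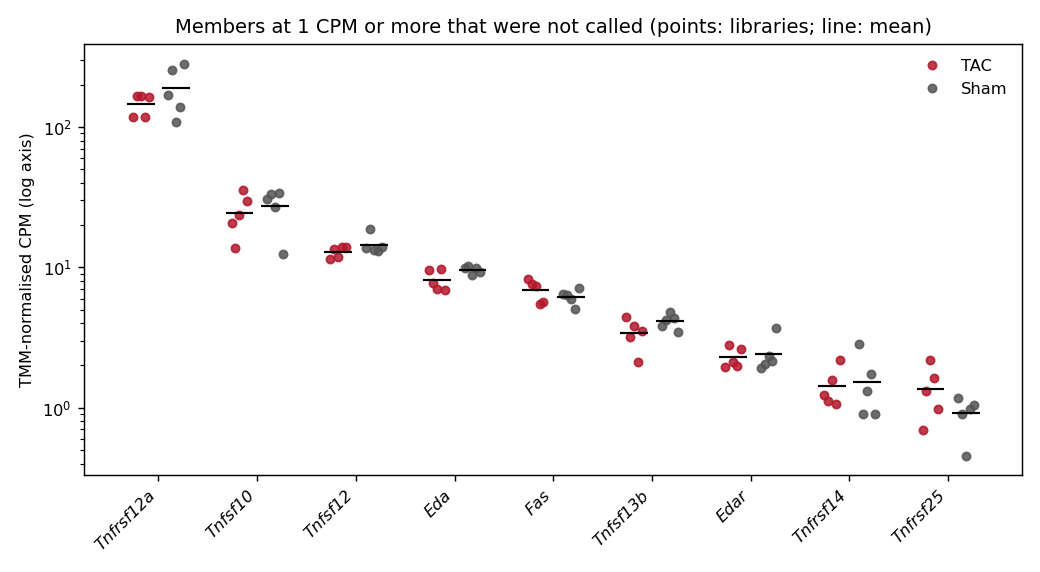
TMM-normalised CPM on a log axis in each TAC and Sham library for the 9 members with at least 1 CPM in either group that were not called, ordered by Sham level. Points are libraries and lines are means. The 2 groups overlap for each of the 9 genes, and Tnfrsf12a, the most abundant, runs from 117 to 167 CPM in TAC and from 109 to 283 CPM in Sham.

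Both receptor genes for TNF rose. Tnfrsf1a, a death-domain receptor gene expressed by most cell types (chr6:125349362-125362484), had 94.1, 114, 91.6, 105 and 114 CPM in TAC replicates 1 to 5, against 73.6, 69.7, 69.0, 65.1 and 59.8 CPM in Sham replicates 1 to 5. Every TAC library lay above every Sham library, an increase of 1.54-fold (log2 fold change 0.62, SE 0.09, adjusted p = 9.0e-05). Tnfrsf1b, which encodes the TNF receptor of leukocytes and endothelium (chr4:145213463-145246870), had 16.2, 37.6, 29.7, 29.5 and 30 CPM in TAC replicates 1 to 5, against 14.8, 11.2, 10.8, 12.5 and 10.7 CPM in Sham replicates 1 to 5. Its groups did not overlap either, although TAC replicate 1 stood just above the highest Sham library, and the increase was 2.39-fold (log2 fold change 1.26, SE 0.19, adjusted p = 2.0e-04). Over the family, 11 tested members had all TAC libraries above all Sham libraries and 2 had them below, where 21.5% and 20.2% of all tested genes did so (41.7% in either direction). Ltbr, which drives the non-canonical NF-kB route, had 53.5, 64.0, 53.6, 57.3 and 60.9 CPM in TAC replicates 1 to 5, against 40.6, 31.5, 41.1, 35.0 and 30.6 CPM in Sham replicates 1 to 5. The gap between the groups was again complete (log2 fold change 0.69, SE 0.10, adjusted p = 1.1e-04).

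Among the other death-domain receptors, Tnfrsf10b, the mouse TRAIL receptor gene, had 4.79, 5.08, 6.42, 5.40 and 6.89 CPM in TAC replicates 1 to 5, against 2.05, 2.68, 3.37, 2.81 and 2.21 CPM in Sham replicates 1 to 5. All TAC libraries were higher (log2 fold change 1.11, SE 0.17, adjusted p = 2.0e-04). Ngfr, which encodes the p75 neurotrophin receptor, had 0.763, 1.87, 0.888, 1.498 and 1.58 CPM in TAC replicates 1 to 5, against 0.310, 0.383, 0.973, 0.825 and 0.338 CPM in Sham replicates 1 to 5. Sham replicates 3 and 4 exceeded the lowest TAC library, and the gene rose (log2 fold change 1.15, SE 0.38, adjusted p = 0.023). The call for Ngfr was lost without TAC replicate 2 (adjusted p = 0.053), without Sham replicate 2 (0.051) or 5 (0.055), and without both shallow Sham libraries (log2 fold change 0.87, adjusted p = 0.11). Tnfrsf21, the death receptor 6 gene, had 10.3, 10.7, 11.5, 10.7 and 9.31 CPM in TAC replicates 1 to 5, against 16.8, 12.3, 13.2, 13.1 and 12.8 CPM in Sham replicates 1 to 5. It was lower in every TAC library, by a small margin (log2 fold change -0.38, SE 0.10, adjusted p = 0.0079), and under library size scaling the value was -0.02 (adjusted p = 0.88).

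Fas, whose product triggers apoptosis when bound by Fas ligand, averaged 6.87 ± 1.23 CPM in TAC and 6.19 ± 0.762 CPM in Sham (SD, n = 5 each) and was not called (interval -0.17 to 0.48, adjusted p = 0.39). With library size as the only scaling Fas passed the test (log2 fold change 0.51, adjusted p = 0.0076). Edar, the ectodysplasin A1 receptor gene, averaged 2.30 ± 0.388 CPM in TAC and 2.43 ± 0.714 CPM in Sham (SD, n = 5 each) with an adjusted p of 0.75, and Tnfrsf25 (DR3) averaged 1.36 ± 0.580 CPM in TAC and 0.912 ± 0.276 CPM in Sham (SD, n = 5 each) with an adjusted p of 0.17. Tnfrsf25 passed the test only under library size scaling among the alternatives run (log2 fold change 0.96, adjusted p = 0.034).

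The largest difference in the family was in a decoy receptor. Tnfrsf11b, which encodes osteoprotegerin, the soluble decoy for RANK ligand and TRAIL (chr15:54250619-54278484, GRCm38), had 4.603, 13.5, 3.02, 5.02 and 7.36 CPM in TAC replicates 1 to 5, against 0.435, 0.320, 0.0304, 0.361 and 0.0375 CPM in Sham replicates 1 to 5. The Sham libraries together held 28 reads of this gene and the TAC libraries 1294, and TAC replicate 2 was the highest. The fitted increase was 30.2-fold (log2 fold change 4.92, SE 0.62, adjusted p = 5.9e-05), and the log2 value stayed between 4.51 and 5.38 over 22 alternatives. Tnfrsf23 and Tnfrsf22, mouse decoy receptor genes for TRAIL, rose too. Tnfrsf23 had 11.2, 12.5, 10.9, 11.0 and 9.29 CPM in TAC replicates 1 to 5, against 4.66, 4.54, 6.11, 4.95 and 3.19 CPM in Sham replicates 1 to 5. Tnfrsf22 averaged 3.28 ± 0.573 CPM in TAC and 1.69 ± 0.196 CPM in Sham (SD, n = 5 each), and for both genes each TAC library exceeded each Sham library. Their log2 fold changes were 1.22 (SE 0.16, adjusted p = 6.1e-05) for Tnfrsf23 and 0.95 (SE 0.17, adjusted p = 5.8e-04) for Tnfrsf22. The transcripts of Tnfrsf22 share 17.3% of their 50-base words with those of Tnfrsf23, so reads from the shared stretches may have been left out as mapping to several places. Tnfrsf11a, the gene of the signalling RANK ligand receptor RANK, averaged 3.38 ± 0.988 CPM in TAC and 1.64 ± 0.668 CPM in Sham (SD, n = 5 each) and rose with overlapping libraries, TAC replicate 1 lying below Sham replicates 2 and 4 (log2 fold change 1.05, SE 0.34, adjusted p = 0.018).

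Cd40 and Tnfrsf13b, both at a low level, rose after TAC. Cd40, whose product receives CD40 ligand on antigen-presenting cells (chr2:165055627-165072948), had 3.31, 3.11, 2.58, 3.79 and 3.19 CPM in TAC replicates 1 to 5, against 1.05, 0.639, 1.19, 0.979 and 1.16 CPM in Sham replicates 1 to 5. The lowest TAC library was above the highest Sham library by a wide margin (log2 fold change 1.65, SE 0.19, adjusted p = 3.1e-05). Tnfrsf13b, which encodes TACI, a receptor of BAFF and APRIL on B cells (chr11:61126755-61149372), had 1.74, 2.44, 3.73, 2.67 and 2.27 CPM in TAC replicates 1 to 5, against 0.435, 0.767, 0.577, 0.722 and 0.375 CPM in Sham replicates 1 to 5. The groups stood apart, with a 4.42-fold increase (log2 fold change 2.15, SE 0.27, adjusted p = 5.3e-05). The sum of 8 B and plasma cell markers was 1.85 to 5.41 CPM in TAC and 0.563 to 2.68 CPM in Sham (exact two-sided permutation p = 0.032, adjusted over 13 marker lists p = 0.052). Of those 8, Cd79b and Cd22 rose, while Ms4a1, Cd79a and Pax5 each averaged under 0.3 CPM in both groups. The part of B cells or of macrophages in the increase of Tnfrsf13b was not tested.

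Tnfrsf26, a receptor gene in the same chromosome 7 cluster as Tnfrsf22 and Tnfrsf23, averaged 1.27 ± 0.204 CPM in TAC and 0.499 ± 0.188 CPM in Sham (SD, n = 5 each, log2 fold change 1.36, SE 0.30, adjusted p = 0.0021). Eda2r, the receptor gene for ectodysplasin A2, had 6.41, 6.38, 7.82, 5.84 and 15.1 CPM in TAC replicates 1 to 5, against 4.97, 5.24, 4.07, 2.99 and 2.51 CPM in Sham replicates 1 to 5. TAC replicate 5 stood far above the other TAC libraries, and the groups did not overlap (log2 fold change 1.09, SE 0.30, adjusted p = 0.0085). Leaving TAC replicate 5 out gave a log2 fold change of 0.77 (adjusted p = 0.013). Tnfrsf18 (GITR) averaged 0.497 ± 0.178 CPM in TAC and 0.248 ± 0.221 CPM in Sham (SD, n = 5 each) and just missed the threshold (log2 fold change 1.11, SE 0.47, adjusted p = 0.062). It passed without Sham replicate 2, the highest Sham library (log2 fold change 1.65, adjusted p = 0.0047). Of the exonic bases of Tnfrsf18, 27.2% are shared with Gm16008 on the opposite strand. Cd27, a T cell costimulatory receptor gene, averaged 0.401 ± 0.127 CPM in TAC and 0.278 ± 0.120 CPM in Sham (SD, n = 5 each) and Tnfrsf14 (HVEM) 1.43 ± 0.467 CPM in TAC and 1.54 ± 0.813 CPM in Sham (SD, n = 5 each). Neither was called, with intervals of -0.35 to 1.28 and -0.83 to 0.66.

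Tnfrsf12a, the most abundant member, had 117, 166, 167, 117 and 164 CPM in TAC replicates 1 to 5, against 169, 253, 109, 138 and 283 CPM in Sham replicates 1 to 5. Sham replicates 2 and 5 were the highest of all 10 libraries and the groups overlapped (log2 fold change -0.38, SE 0.25, adjusted p = 0.21, interval -0.93 to 0.16). Tnfrsf19, which encodes TROY, an orphan receptor known from the nervous system and from stem cells (chr14:60963875-61046490), fell. It had 3.56, 2.32, 2.69, 2.06 and 2.90 CPM in TAC replicates 1 to 5, against 13.7, 11.1, 11.2, 14.4 and 12.1 CPM in Sham replicates 1 to 5. No TAC library reached 4 CPM and no Sham library fell below 11 CPM, and the level in TAC was 0.217 of that in Sham (log2 fold change -2.20, SE 0.16, adjusted p = 1.6e-06). Over the 22 alternatives the log2 fold change of Tnfrsf19 ran from -2.30 to -1.85. Schwann cell markers, genes of the glia that line peripheral nerves, summed to 5.80 to 10.9 CPM in TAC and 18.4 to 25.8 CPM in Sham over 6 genes (two-sided exact permutation p = 0.0079, adjusted p = 0.015). Their part in the fall of Tnfrsf19 was not tested.

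**Figure D3:**
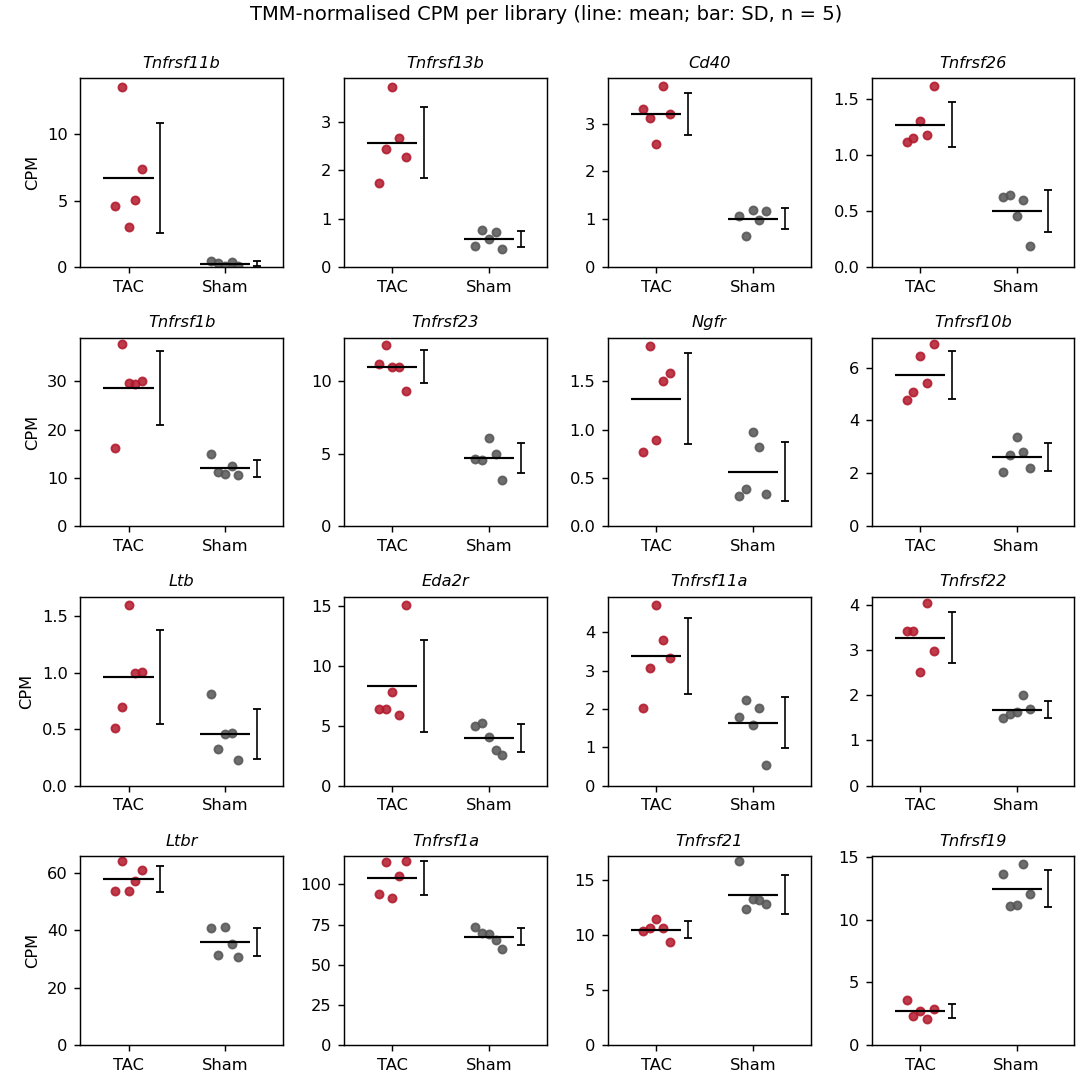
TMM-normalised CPM in each library for the 16 members that rose or fell, with TAC left of Sham in each panel, the mean as a line and the SD as a bar (n = 5). Panels run from the largest increase, Tnfrsf11b, to the largest decrease, Tnfrsf19. The groups stand apart in all panels but those of Ngfr, Ltb and Tnfrsf11a.

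The 15 members that failed the filter, 10 ligand and 5 receptor genes, held 4 to 83 reads over the 5 TAC libraries and 0 to 23 over the 5 Sham libraries, and none averaged above 0.446 CPM in either group. Tnfsf8, the CD30 ligand gene, had 69 reads in TAC and 3 in Sham, Tnfsf18, the GITR ligand gene, 83 in TAC and 12 in Sham, and Tnfsf15, the DR3 ligand gene, 43 in TAC and 4 in Sham. When no filter was applied these 3 passed the test (adjusted p = 4.3e-04, 0.0062 and 0.0079 in that order), and the other 12 did not, with adjusted p from 0.073 to 0.98. The share of all 27785 genes tested without the filter that passed was not worked out, so this count has no background. Tnfsf4 (OX40 ligand) and Cd70 (CD27 ligand) had no read in Sham, which allows a level of up to 0.02 CPM over the group, and 7 and 6 reads in TAC. Tnfsf11, the RANK ligand gene, had 15 reads in TAC and 19 in Sham, and Fasl, the gene of the death ligand for Fas, had 12 in TAC and 9 in Sham. Cd40lg had 4 reads in TAC and 1 in Sham. The remaining ligand genes were Lta (31 reads in TAC, 12 in Sham) and Tnfsf14, or LIGHT (46 in TAC, 12 in Sham). Of the receptor genes, Tnfrsf4 (OX40) had 68 reads in TAC and 19 in Sham, and Tnfrsf9 (4-1BB) 32 in TAC and 8 in Sham. Tnfrsf8 (CD30) had 24 in TAC and 9 in Sham, Tnfrsf13c (the BAFF receptor) 19 in TAC and 5 in Sham, and Tnfrsf17 (BCMA) 14 in TAC and 23 in Sham. For most of these genes a difference was not detectable at this depth.

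Set side by side over 27 known ligand and receptor pairs, 1 pair had both genes higher, Ltb with Ltbr. In 7 pairs the receptor gene rose while its ligand gene was tested and not called, namely Tnf with Tnfrsf1a and Tnfrsf1b, Tnfsf10 with Tnfrsf10b and Tnfrsf11b, Tnfsf13b and Tnfsf13 with Tnfrsf13b, and Eda with Eda2r. In 6 further pairs the receptor gene rose and the ligand gene was too low to test, as with Cd40lg and Cd40 or Tnfsf11 and Tnfrsf11a. In 2 pairs both genes were tested and not called, Eda with Edar and Tnfsf12 with Tnfrsf12a. In 5 pairs, Fasl with Fas among them, the ligand gene was not tested and the receptor gene not called. In 4 pairs only the ligand gene was tested, and in 2 neither was. Tnfrsf1a, Tnfrsf1b, Tnfrsf11b, Tnfrsf13b, Tnfrsf17 and Ltbr each stand in more than 1 pair. So do the ligand genes Tnf, Lta, Eda, Tnfsf10, Tnfsf11, Tnfsf13, Tnfsf13b and Tnfsf14, and the pairs are not separate counts. Of all tested genes 28.9% rose. That the ligand missed the threshold does not show that it differed less than the receptor, since that difference was not tested.

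Promoter windows from RefSeq (GRCm38.p6, 250 bases before to 50 bases after a start site) were matched for 36 of the 47 members. They were searched on both strands for the letters GGG, any 5 bases and CC, in any window of a gene, a loose form of the kappaB site that NF-kB binds. At least 1 match was found in 9 of the 9 genes that rose and had a window, and in 9 of 13 tested and not called. It was found in 0 of 2 that fell and in 53.5% of 27025 genes. Over all 36 members with a window the share was 69.4%, and over the member receptors with a window 77.3%. Tnfrsf11b, Cd40, Tnfrsf26, Tnfrsf10b and Tnfrsf22 also rose but had no window, so the 9 leave them out. The windows differed in base composition, with a median of 62.7% G and C for the genes that rose and 52.7% over all windows. TGANTCA, an AP-1 site, matched 0 of the 9, 3 of the 13 and 9.0% of all genes, and TTCNNNGAA, a STAT site, matched 3 of the 9, 3 of the 13 and 9.6% of all genes. Matches of the motifs were counted separately and may overlap each other. Shown are both TNF receptor genes, Tnfrsf13b, which has the highest fold change among the genes with a window, and for contrast both start sites of Tnfrsf19, with matches to this kappaB form on either strand in capitals.
Tnfrsf1a (chr6:125349473-125349772, plus strand): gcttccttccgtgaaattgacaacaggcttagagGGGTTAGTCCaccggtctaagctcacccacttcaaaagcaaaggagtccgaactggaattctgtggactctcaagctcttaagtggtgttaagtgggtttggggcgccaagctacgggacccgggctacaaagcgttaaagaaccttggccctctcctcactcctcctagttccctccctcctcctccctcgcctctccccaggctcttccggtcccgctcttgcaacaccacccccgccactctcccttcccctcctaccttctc
Tnfrsf1b (chr4:145246821-145247120, minus strand): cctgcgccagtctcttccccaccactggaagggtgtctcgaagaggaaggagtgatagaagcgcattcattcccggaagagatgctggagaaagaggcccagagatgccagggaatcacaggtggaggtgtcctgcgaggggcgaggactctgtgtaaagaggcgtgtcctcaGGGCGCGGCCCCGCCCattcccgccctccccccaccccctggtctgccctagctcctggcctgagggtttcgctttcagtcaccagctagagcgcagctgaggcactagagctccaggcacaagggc
Tnfrsf13b (chr11:61126505-61126804, plus strand): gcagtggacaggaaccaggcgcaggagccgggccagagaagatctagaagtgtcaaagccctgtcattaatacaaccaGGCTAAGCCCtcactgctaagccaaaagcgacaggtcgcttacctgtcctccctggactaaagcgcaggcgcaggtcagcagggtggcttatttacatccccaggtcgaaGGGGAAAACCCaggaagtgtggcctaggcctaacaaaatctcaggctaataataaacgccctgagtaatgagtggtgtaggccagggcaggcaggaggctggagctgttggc
Tnfrsf19 (chr14:61046806-61047105, minus strand): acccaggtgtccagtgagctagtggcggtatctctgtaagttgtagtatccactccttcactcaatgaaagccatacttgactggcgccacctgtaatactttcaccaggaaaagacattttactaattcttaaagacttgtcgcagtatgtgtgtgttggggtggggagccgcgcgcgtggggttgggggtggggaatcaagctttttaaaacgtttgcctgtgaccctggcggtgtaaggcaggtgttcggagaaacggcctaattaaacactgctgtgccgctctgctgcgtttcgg
Tnfrsf19 (chr14:61037938-61038237, minus strand): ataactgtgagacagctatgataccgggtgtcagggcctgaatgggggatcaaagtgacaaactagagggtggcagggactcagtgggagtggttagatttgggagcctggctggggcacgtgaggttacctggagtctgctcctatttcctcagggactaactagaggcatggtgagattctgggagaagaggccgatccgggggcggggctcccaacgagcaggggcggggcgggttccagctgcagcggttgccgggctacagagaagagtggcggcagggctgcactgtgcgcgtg
The matches in Tnfrsf1b form 1 run in which 3 matches overlap, those in Tnfrsf13b form 1 separate match and a run of 2, and neither window of Tnfrsf19 holds these letters. A match is a description of the letters and not evidence that the factor binds.

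The genes through which the receptors act were described by 6 lists with 82 members. Of 78 tested, 30 rose and 19 fell, where 28.9% of all tested genes rose and 27.9% fell. Scaling by library size alone gave 48 higher and 7 lower, against 51.0% and 12.7% of all tested genes. These shares are the background for the count of each list, and no list was tested against them. In the list of death machinery, 9 of 12 genes rose and 2 fell (10 and 0 by library size; median log2 fold change 0.90). Bax and Bak1, whose products open the mitochondrial outer membrane, had log2 fold changes of 0.98 (SE 0.11) and 1.01 (SE 0.12) and rose. Casp8, the initiator caspase gene recruited by FADD, rose by 0.91 (SE 0.18), and the necroptosis genes Ripk3 and Mlkl rose by 0.89 (SE 0.16) and 1.12 (SE 0.18); these 3 were chosen after their values were seen. Cflar, which encodes the caspase 8 inhibitor FLIP, fell to 76.1 ± 6.02 CPM in TAC, against 98.2 ± 8.42 CPM in Sham, and Diablo fell by 0.42 on the log2 scale (SE 0.10). Under library size scaling neither passed (-0.01 and -0.07). Xiap, an inhibitor of caspases, was not called (77.5 ± 5.38 CPM in TAC and 70.3 ± 1.59 CPM in Sham, adjusted p = 0.073).

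Adaptors and ubiquitin ligases split into 7 higher and 3 lower of 17 (12 and 0 by library size). Tradd, the adaptor gene for death-domain receptors, averaged 8.26 ± 0.695 CPM in TAC and 4.47 ± 0.342 CPM in Sham (log2 fold change 0.89, SE 0.11). Tnfaip3, which encodes the NF-kB inhibitor A20, rose by 1.01 (SE 0.20) and Traf2 by 0.59 (SE 0.13). Traf6 fell to 18.7 ± 1.33 CPM in TAC, against 27.3 ± 0.653 CPM in Sham (-0.54, SE 0.07, and -0.18 with adjusted p = 0.099 under library size scaling). Rnf31 and Sharpin, of the linear ubiquitin ligase, fell by 0.31 (SE 0.08) and 0.34 (SE 0.08), and both changed sign under library size scaling (0.05 and 0.02). Cyld, a deubiquitinase gene, was not called (81.5 ± 11.0 CPM in TAC and 74.0 ± 4.84 CPM in Sham).

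NF-kB kinases and factors counted 3 higher and 6 lower of 17, or 9 and 0 by library size, so no direction for the list holds under both scalings. The inhibitor gene Nfkbie rose by 1.48 (SE 0.25), Map3k14, which encodes the kinase NIK of the non-canonical route, by 0.84 (SE 0.16) and Bcl3 by 0.78 (SE 0.17). Tab3 and Nfkbib fell by 0.57 (SE 0.09) and 0.59 (SE 0.11), not passing under library size scaling (-0.21 and -0.23), while Map3k7, the TAK1 kinase gene, at a log2 fold change of -0.28 (SE 0.06) changed sign under library size scaling (0.09). Nfkb1, the most abundant member not called, averaged 69.4 ± 6.06 CPM in TAC and 63.3 ± 2.92 CPM in Sham. Genes known as NF-kB targets did not move together. Of 17 tested, 4 rose and 3 fell (8 and 3 by library size; median 0.13). The cytokine genes Il6 (3.92, SE 0.37), Il1b (4.02, SE 0.55) and Ccl5 (2.94, SE 0.52) rose on the log2 scale, Mmp9, Sod2 and Ptgs2 fell by 2.74 (SE 0.38), 1.33 (SE 0.20) and 1.75 (SE 0.39), and the adhesion molecule gene Vcam1 was not called (99.8 ± 16.3 CPM in TAC and 100.4 ± 23.4 CPM in Sham). In Sham, Il6, Il1b and Ccl5 were scarce, averaging 0.112, 0.442 and 0.256 CPM from 13, 56 and 38 reads. In TAC these cytokine genes averaged 1.615, 7.08 and 2.13 CPM. Il1b was lowest among TAC libraries in replicate 1, at 1.41 CPM.

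The list of ligand and receptor shedding, the release of these proteins from the membrane, counted 4 genes higher and 1 lower of 6 (5 and 1 by library size). Adam17, the gene of the TNF-converting enzyme, averaged 60.7 ± 7.91 CPM in TAC and 40.8 ± 2.70 CPM in Sham (log2 fold change 0.57, SE 0.09). Timp3, whose product inhibits that enzyme, fell to 309 ± 33.0 CPM in TAC, against 569 ± 98.8 CPM in Sham (-0.88, SE 0.12). Furin, a convertase gene that matures several family ligands, averaged 387 ± 79.5 CPM in TAC and 192 ± 12.2 CPM in Sham, and Rhbdf1, an ADAM17 cofactor gene, rose by 0.51 (SE 0.10). Its paralog Rhbdf2 was not called (adjusted p = 0.24). In the neurotrophin system that signals through Ngfr, 3 genes rose and 4 fell of 9 (4 and 3 by library size). The ligand gene Bdnf rose by 2.19 (SE 0.24) and the receptor gene Ntrk3 by 1.38 (SE 0.38). Ntf3, Ntrk2 and Sort1, which encodes the coreceptor sortilin, fell by 1.54 (SE 0.20), 1.94 (SE 0.34) and 0.84 (SE 0.09).

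**Figure D4:**
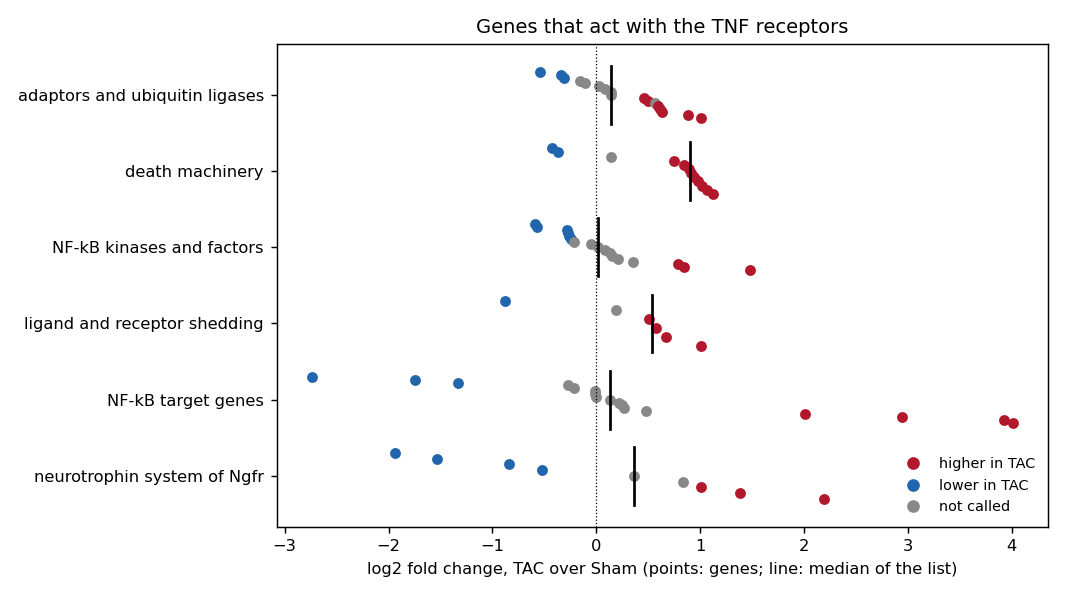
Log2 fold change (TAC over Sham) of 78 tested genes that act with the TNF receptors, 1 point per gene and 1 row per list, with the median of each list as a line. Red points rose, blue points fell and grey points were not called. The death machinery list has its median at 0.90, and the NF-kB kinase and factor list at 0.02.

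Summed markers of several cell types differed between TAC and Sham, and others did not pass the test. Macrophage and monocyte markers averaged 381 ± 95.6 CPM in TAC and 139 ± 30.7 CPM in Sham (SD, n = 5 each), with 6 of 7 tested markers higher, and neutrophil markers 7.40 ± 2.44 CPM in TAC and 1.49 ± 1.25 CPM in Sham with the defining Ly6g at 2 reads in TAC and 0 in Sham. Smooth muscle and pericyte markers averaged 869 ± 113 CPM in TAC and 517 ± 48.4 CPM in Sham, with 4 of 8 markers higher, Abcc9 lower and 3 not called, and with Rgs5 alone at 436 CPM in TAC and 240.3 CPM in Sham. Cardiomyocyte markers averaged 38610 ± 4598 CPM in TAC and 76310 ± 4432 CPM in Sham, with 7 of 8 lower, Nppa being higher. Adipocyte markers averaged 6.06 ± 7.61 CPM in TAC and 40.7 ± 21.9 CPM in Sham. Each of these 5 lists, the Schwann cell list and the cycling-cell list had an exact permutation p of 0.0079 and an adjusted p of 0.015 over the 13 lists. NK cell markers did not pass after adjustment (1.70 ± 0.925 CPM in TAC and 0.679 ± 0.392 CPM in Sham, adjusted exact permutation p = 0.057). T cell (adjusted p = 0.42), fibroblast (0.45), endothelial (0.18) and epicardial or mesothelial markers (0.71, each from the exact permutation test) did not pass, and within the fibroblast list Tcf21, Col1a1, Col1a2, Postn and Lum were higher and Dcn and Gsn lower. The part of these cells in the receptor differences was not tested.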

How the data were processed

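RNA of 5 TAC and 5 Sham left atrium libraries was sequenced. The authors deposited 1 table of unnormalized counts by gene symbol for each library, as its whole numbers with differing totals show. The submitters' processing notes name STAR, bcl2fastq and the build mm10 without versions. Which program counted the reads, with which strand setting and annotation, is not given in the sources used here. The 5 closing tallies that name no gene stayed out of library sizes and tests. Ambiguous reads made up 5.34% to 6.09% of all reads in TAC and 3.85% to 4.48% in Sham. The labels name a Nugen low-input kit, whereas the design text names a TruSeq kit. Within each group, all pairs of libraries differed by far more than counting noise (chi-square per degree of freedom of at least 20.4).

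Counts were tested with edgeR 4.0.16 in R 4.3.3 (TMM factors, filterByExpr at its defaults, robust quasi-likelihood F test, group as the only term), with Benjamini-Hochberg adjustment over all 15175 genes tested. Fold changes are TAC over Sham on the log2 scale, each SE was taken from the F statistic, and 95% intervals follow from it. Sums over marker genes were compared by exact two-sided permutation over 252 regroupings, whose smallest p is 0.0079. Limits for a count of 0 use 3 counts and cover counting error only. Coordinates, exon lengths and overlaps come from GENCODE M21 (GRCm38, also called mm10), which held 1 gene for each of the 47 members and for 95.7% of all symbols. Alternatives were DESeq2 1.42.0, limma 3.58.1 voom with quality weights, other scalings and filters, the replicate number as a block, and each library left out. The 22 alternatives also count an adjusted p under 0.01 as the threshold, which uses the same fit and so cannot move a fold change.

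Members and lists were chosen with earlier results of these data known. Every member is named. Of each of the 6 pathway lists, up to 3 called genes per direction with the smallest adjusted p and the most abundant gene not called are named. A gene outside that rule is marked. Some genes that the rule names are not reported here. The 3 promoter motifs, the windows printed, the levels by abundance class and the unfiltered values of low members were chosen after the data had been seen, the windows also after their matches, and all motifs searched are reported. Python 3.11.15, pandas 2.3.3, scipy 1.17.1 and matplotlib 3.10.9 made the tables and figures.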

Additional observations from a re-analysis of the deposited data

Results flagged for a closer look

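In 6 of the 64 groups of 5 libraries examined for the 32 tested members, 1 library lay far from the other 4 (gap over range above 0.71). Chance flags about 5% of groups, or 3.2 of 64, so a few are to be expected. Eda2r stood at 15.1 CPM in TAC replicate 5, against 5.84 to 7.82 CPM in the other TAC libraries. Tnfsf9 stood at 0.998 CPM in TAC replicate 4, against 0.554 to 0.673 CPM in the others. Edar stood at 3.68 CPM in Sham replicate 5, against 1.92 to 2.34 CPM in the other Sham libraries. In Sham replicate 2, Tnfrsf18 stood at 0.639 CPM against 0.122 to 0.206 CPM, and Tnfsf12 at 18.7 CPM against 13.0 to 14.0 CPM. Tnfrsf21 stood at 16.8 CPM in Sham replicate 1, against 12.3 to 13.2 CPM.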

How the results depend on the processing

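The counts of members that rose (14) and fell (2) ran from 11 to 17 and from 1 to 3 over 22 alternatives, and from 13 to 16 and 2 to 3 with 1 library left out. The lowest count of members that rose came from an adjusted p under 0.01 as the threshold, and the value of 1 that fell from library size as the only scaling, which shifted the median of all genes by 0.36. Under that scaling 51.0% of tested genes rose and 12.7% fell, 17 members rose, and 48 pathway genes rose and 7 fell. Shares of all genes were worked out only for the main fit and for library size scaling. Counts under the other alternatives therefore have no background and say nothing about the family against all genes. With 1 library left out, pathway genes that rose ran from 30 to 38 and those that fell from 18 to 19. Of 695 values of single members over the alternatives, 655 kept their sign and their side of the threshold, 14 lost the call, 9 gained it and 17 changed sign, all 17 in members that were not called. Those sign changes under library size scaling were Eda (0.12), Edar (0.30), Tnfrsf14 (0.26), Tnfsf10 (0.19), Tnfsf12 (0.20), Tnfsf13b (0.08) and Tnfsf13os (0.27). With 1 library left out, values that crossed 0 ran from -0.16 to 0.11 for Edar, -0.28 to 0.22 for Tnfrsf14, -0.35 to 0.01 for Tnfsf10, -0.04 to 0.45 for Tnfsf13, -0.33 to 0.32 for Tnfsf13os and, for the log2 ratio of summed epicardial markers, -0.16 to 0.46. Without both shallow Sham libraries Tnfrsf14 was at 0.11 and 16 members rose. The 9 gained calls were Fas and Tnfrsf25 under library size scaling, Eda with limma voom (-0.32, adjusted p = 0.028), Tnf without Sham replicate 5 (-1.25, adjusted p = 0.021), and Tnfrsf18 under 5 alternatives, library size scaling among them. Low read numbers limit the 15 untested members. The replicate numbers did not pair the libraries: deviations from the group means of same-numbered libraries correlated at -0.04 to 0.08 over genes, and with the number as a replicate block 13 members rose and 2 fell, and 30 pathway genes rose and 19 fell. The causes of these shifts were not tested.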

Other observations

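Several members lie next to each other in the genome, and their values are given here without a test, since the groups of neighbours were seen after the values. On chromosome 7, Tnfrsf26 (143607659 to 143628722, GRCm38), Tnfrsf22 (143634806 to 143649661) and Tnfrsf23 (143665809 to 143685872) all rose, with log2 fold changes of 1.36, 0.95 and 1.22. On chromosome 4, Tnfsf15 (63727084 to 63745113) and Tnfsf8 (63831308 to 63861347), both under the filter, had 43 and 69 reads in TAC and 4 and 3 reads in Sham. On chromosome 1, Tnfsf4 (161395409 to 161418410) and Tnfsf18 (161494655 to 161505290) had 7 and 83 reads in TAC and 0 and 12 reads in Sham. On chromosome 6, Ltbr (125306571 to 125313885) and Tnfrsf1a (125349362 to 125362484) rose by log2 fold changes of 0.69 and 0.62, while Cd27 (125232622 to 125237010) was not called. Neighbours did not always share a direction. In the chromosome 17 cluster Ltb (35194439 to 35196320) rose with a log2 fold change of 1.09, whereas Tnf (35199381 to 35202007) was at -1.01 and not called. Lta (35203165 to 35205351), in the same cluster and under the filter, had 31 reads in TAC and 12 in Sham. Other neighbouring members, such as Tnfrsf1b with Tnfrsf8 or Tnfrsf4 with Tnfrsf18, are not listed here.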
